A study of Rattus norvegicus with 16 samples.

Results

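The MAP kinase phosphatases described here are the products of Dusp1, Dusp4, Dusp5, Dusp6 and Ptprr. They were taken by name, as phosphatases that act on MAP kinases, with earlier results of these data known. All 5 genes were on the array, with 8 probe sets among the 15866 that were not controls and among the 12783 of these that carry 1 named gene. RNA came from the left ventricles of 16 male rats, each hybridized to 1 Affymetrix Rat 230A array. Rats of the spontaneously hypertensive (SH) strain were compared with Wistar Kyoto (WKY) rats, the normotensive control strain. At 12–14 weeks of age they inhaled air or diesel exhaust (DE) at 2.0 mg/m3 for 5 days/week over 4 weeks, for 6 hr/day by the sample labels and a shorter time by the methods of the paper. This gave 4 groups of 4 rats, named by strain and inhaled air as SH-DE, SH-air, WKY-DE and WKY-air. The sample labels set the groups apart by strain and exposure and name no transgene.

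MAP kinases pass on signals of growth factors, stretch and stress, and they are active while both a threonine and a tyrosine of their activation loop carry phosphate. MAP kinase phosphatases remove that phosphate and end the signal. Many of them are themselves transcribed when the pathway is active, so that their mRNA forms a negative feedback, and in the heart they restrain the MAP kinase signals tied to hypertrophy and stress. Dusp1 and Dusp4 encode nuclear phosphatases of several MAP kinase families. Dusp5 encodes a nuclear and Dusp6 a cytoplasmic phosphatase of ERK. Ptprr encodes a tyrosine phosphatase that binds MAP kinases through a docking motif.

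Dusp1 was lower in SH than in WKY rats on 1 of its 2 probe sets, by 1.82-fold under air and by 1.88-fold under DE, and the other probe set was not called. Dusp4 was 3.35-fold higher in WKY-DE than in WKY-air, a fold that depends on the offset given below. Its difference between SH-DE and SH-air did not pass the test (log2 difference −0.12, 95% interval −0.93 to 0.68), nor did the test of whether the DE effects of the strains differ (limma adjusted p = 0.225). Dusp6 had 1 probe set of 3 that was 1.88-fold higher in SH-air than it was in WKY-air, while its brightest probe set had lower values there that did not pass the test. Dusp5 and Ptprr passed the test in 0 comparisons.

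The values are MAS5 signals, intensities on a linear scale for which the authors brought each array to a trimmed mean of 500. Differences are given on the log2 scale after 16.1 was added to each signal, an offset set at the 10th percentile of the table, and folds are on the same scale, which damps those of dim genes. A probe set was called, or passed the test, where its limma adjusted p was under 0.05 and its unadjusted p also under 0.01, and p-values were adjusted over all 15866 probe sets. The comparisons of WKY-DE and of SH-air with WKY-air share the WKY-air arrays. The comparison of SH-DE with WKY-DE shares no array with that of SH-air with WKY-air, though all comparisons share the variance estimate of 1 model. Signals of different probe sets were not set against each other. In this bulk tissue, fewer cells of a type and less RNA per cell cannot be told apart. The median signal of an array was 173 to 197 in WKY-air, SH-air and SH-DE and 209 to 216 in WKY-DE. All 6 ventricular cardiomyocyte markers measured were bright, with a summed signal of 137464 to 258966 per array. Limma called 0 of them between SH-air and WKY-air (1 at an unadjusted p under 0.05) and 0 between WKY-DE and WKY-air (3 at an unadjusted p under 0.05). In SH-DE against WKY-air 1 of 6 was called lower (4 at an unadjusted p under 0.05), where 1.91% of all probe sets with 1 named gene were called. Atrial cardiomyocyte markers were present as well. The sum of 5 atrial markers was 31981 to 94381 on WKY-air arrays and 11661 to 41881 on WKY-DE arrays, and 11946 to 23630 on those of SH-air and 12749 to 33342 on those of SH-DE, with 3 of 5 called lower in SH-air than in WKY-air and 0 of 5 called in WKY-DE against WKY-air (4 at an unadjusted p under 0.05). None of the 5 was at 0. The sum of 8 fibroblast markers was 24579 to 33763 and 18992 to 25366 on WKY arrays under air and DE. On SH arrays it was 16037 to 19832 under air and 18915 to 21500.1 under DE. Against WKY-air, 5 of 8 were called lower in SH-air (7 at an unadjusted p under 0.05) and 1 of 8 in WKY-DE (6 at an unadjusted p under 0.05). Of all probe sets with 1 named gene, 3.14% were called in SH-air and 1.87% in WKY-DE, each against WKY-air. The part of these cells in the results below was not tested, except where a value is given.

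Dusp1 encodes a phosphatase that is made within minutes of a stress or growth signal and acts on p38, JNK and ERK in the nucleus. The gene lies at chr10:17184853-17187646 in the GRCr8 build. On probe set 1368146_at its signals under air were 1713.9, 2278.8, 2242.0 and 2211.8 in the WKY rats and 1172.2, 1000.8, 1319.6 and 1118.3 in the SH rats. Every SH-air array lay below every WKY-air array. Under DE the signals were 2436.4, 2324.9, 2079.95 and 2268.6 in the WKY rats and 985.9, 918.7, 1627.5 and 1403.99 in the SH rats. Again the groups did not overlap, although SH-DE spread over a wider range than the other groups. The strain difference was −0.86 under air (SE 0.17, limma adjusted p = 0.0157) and −0.91 under DE (SE 0.17, limma adjusted p = 0.0208), and both were called. The exact two-sided permutation test gave p = 0.0286 for each, the smallest value that 4 arrays against 4 allow.

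The DE differences of this probe set were within the spread between rats in both strains. WKY-DE differed from WKY-air by 0.12 (95% interval −0.25 to 0.48, limma adjusted p = 0.743) and SH-DE from SH-air by 0.064 (95% interval −0.30 to 0.43, limma adjusted p = 0.985). The difference between these DE effects was −0.051 (95% interval −0.57 to 0.47). From low to high the group means were SH-air, SH-DE, WKY-air and WKY-DE, and neither the groups of SH rats nor those of WKY rats differed beyond their spread. The call under air held with each of the 16 arrays left out in turn (limma adjusted p 0.00727 to 0.0481). The call under DE was lost without WKY-DE replicate 1, 2 or 4 or without SH-DE replicate 1 or 2 (limma adjusted p 0.0624 to 0.0761).

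The atrial markers moved with Dusp1 between the strains under air. The mean log2 signal of Myl7, Myl4, Sln and Nppa was 12.0 to 14.1 on the WKY-air arrays and 8.10 to 9.08 on the SH-air arrays. Under DE it was 9.12 to 12.9 in the WKY rats and 8.33 to 12.5 in the SH rats, where the groups overlapped. SH-DE replicate 3 had both the highest atrial mean and the highest Dusp1 signal of its group. In each other group the array with the highest atrial mean had the lowest Dusp1 signal. With this mean as a covariate the strain difference of Dusp1 under air was −0.90, beside −0.86 without it, and was no longer called (limma adjusted p = 0.600). The atrial means of these groups did not overlap, so under air this fit separates strain from the atrial markers only poorly. Under DE it was −0.92 with the covariate and was still called (limma adjusted p = 0.0380). In SH-air against WKY-air the covariate took the calls over all probe sets with 1 gene from 401 to 8. The part of atrial cells in the Dusp1 signal was not tested beyond these values.

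A second probe set of Dusp1, 1368147_at, did not show the strain difference. Its signals were 350.6, 212.9, 471.1 and 210.4 in WKY-air and 298.4, 253.9, 283.8 and 277.2 in SH-air, and under DE 218.5, 343.7, 275.7 and 346.4 in the WKY rats and 315.7, 166.5, 239.6 and 395.8 in the SH rats. All 4 groups overlapped. The strain difference was −0.078 under air (95% interval −0.65 to 0.50, limma adjusted p = 0.913) and −0.12 under DE (95% interval −0.70 to 0.45, limma adjusted p = 0.881). The interval under air overlaps in part that of the other probe set, −1.23 to −0.49. Over the 16 arrays the probe sets correlated with r = 0.18, given as a description. The positions of their probes in the transcript were not used here, and strain variants under the probes were not examined, so the Dusp1 difference is in the signal of 1 probe set.

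**Figure D1:**
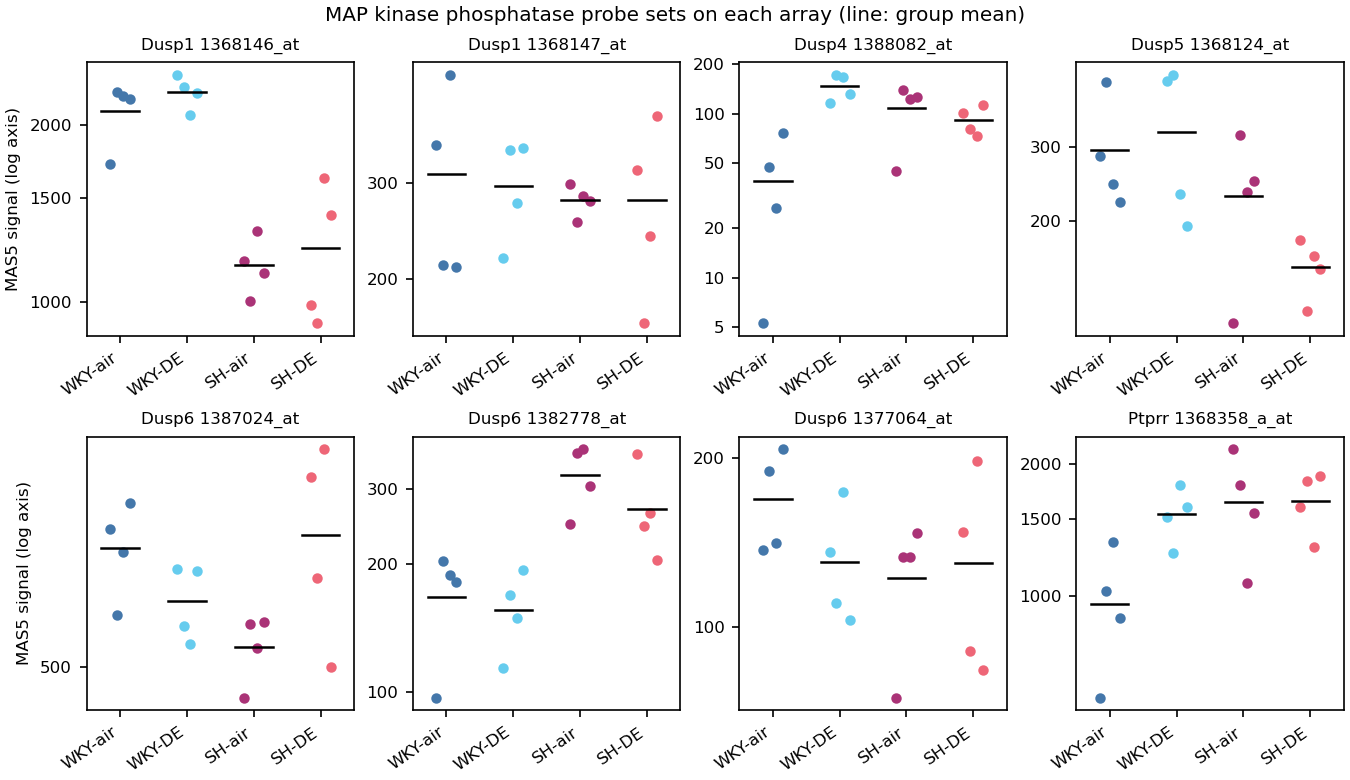
MAS5 signal (log axis) of the 8 probe sets of Dusp1, Dusp4, Dusp5, Dusp6 and Ptprr on each array, by group, where points are rats and lines the group means. Dusp1 1368146_at separates the strains under both exposures, and Dusp4 has its lowest mean in WKY-air, 38.7 against 147 in WKY-DE.

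The promoter of Dusp1 is shown because the strain difference is in a gene that is known for fast induction through its promoter. These are the 250 bases before the start at chr10:17184603-17184852 (RefSeq, GRCr8, + strand), 5′ to 3′, with CRE matches in capitals, where CRE is the site bound by CREB.
Dusp1 promoter: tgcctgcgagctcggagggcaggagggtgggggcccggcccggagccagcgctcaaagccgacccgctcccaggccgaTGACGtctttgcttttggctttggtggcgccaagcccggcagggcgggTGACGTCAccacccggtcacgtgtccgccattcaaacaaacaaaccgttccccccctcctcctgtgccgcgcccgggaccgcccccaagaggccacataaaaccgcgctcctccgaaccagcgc
The window held 1 full CRE (TGACGTCA) at −124 to −117 from the start and a further CRE half-site (TGACG) at −172 to −168. On both strands together, 1.59% of 33469 promoter windows of the same length held a full CRE and 18.2% a half-site, and the half-site also lies within the full CRE. Of the 5 genes, 4 were in the promoter table, all but Dusp4. The windows that the table gives for Dusp6 and Ptprr reach into or lie within the gene spans printed here and were not compared. The reference sequence is of neither SH nor WKY rats, and a match is a description of these letters.

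Dusp4 encodes a nuclear phosphatase closely related to that of Dusp1, acting on ERK and JNK, and lies at chr16:64079893-64101396. On probe set 1388082_at its signals in WKY-air were 5.28, 46.9, 26.6 and 76.0, and in WKY-DE 115.6, 172.5, 166.6 and 131.5. Every WKY-DE array lay above every WKY-air array, and WKY-air replicate 1 was below the offset. In SH rats the signals were 44.4, 138.5, 122.5 and 125.7 under air and 101.3, 80.5, 73.5 and 112.3 under DE. These groups overlapped, with SH-air replicate 1 far below the other SH-air arrays.

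In WKY rats the DE difference of Dusp4 was 1.75 (SE 0.38, 95% interval 0.94 to 2.55, limma adjusted p = 0.0364). It was 2.36 with an offset of 1 (limma adjusted p = 0.0621) and 1.09 with an offset at the 25th percentile of the table (limma adjusted p = 0.0221). It kept its direction after quantile normalization, which removes the higher array medians of WKY-DE, but was then no longer called (1.55, limma adjusted p = 0.0762). The call was also lost without WKY-air replicate 1, 2 or 3 and without any 1 of the 4 WKY-DE arrays (limma adjusted p 0.0515 to 0.0815). In SH rats the DE difference was −0.12 (limma adjusted p = 0.987). The interaction of strain and exposure, the test of whether these DE effects differ, was −1.87 (SE 0.53, unadjusted p = 0.00331, limma adjusted p = 0.225) and was not called, with a limma adjusted p of 0.155 to 0.682 over the alternatives.

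From low to high the group means of Dusp4 were WKY-air, SH-DE, SH-air and WKY-DE, and each pair of neighbors in this order overlapped. SH-air lay above WKY-air by 1.28 (SE 0.38, limma adjusted p = 0.0838), which did not pass the test, and the groups overlapped through SH-air replicate 1. Without that array the difference was 1.59 and was called (limma adjusted p = 0.0407), as it was without WKY-air replicate 4 (1.59, limma adjusted p = 0.0423). All 4 SH-DE arrays lay below all 4 WKY-DE arrays, with a difference of −0.59 (95% interval −1.40 to 0.22, limma adjusted p = 0.531). The atrial mean was 12.0 to 14.1 on the 4 WKY-air arrays, the group with the lowest Dusp4 mean, and 9.12 to 12.9 on the WKY-DE arrays, with overlap. With the atrial covariate the DE difference in WKY rats was 1.44 (limma adjusted p = 0.178).

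**Figure D2:**
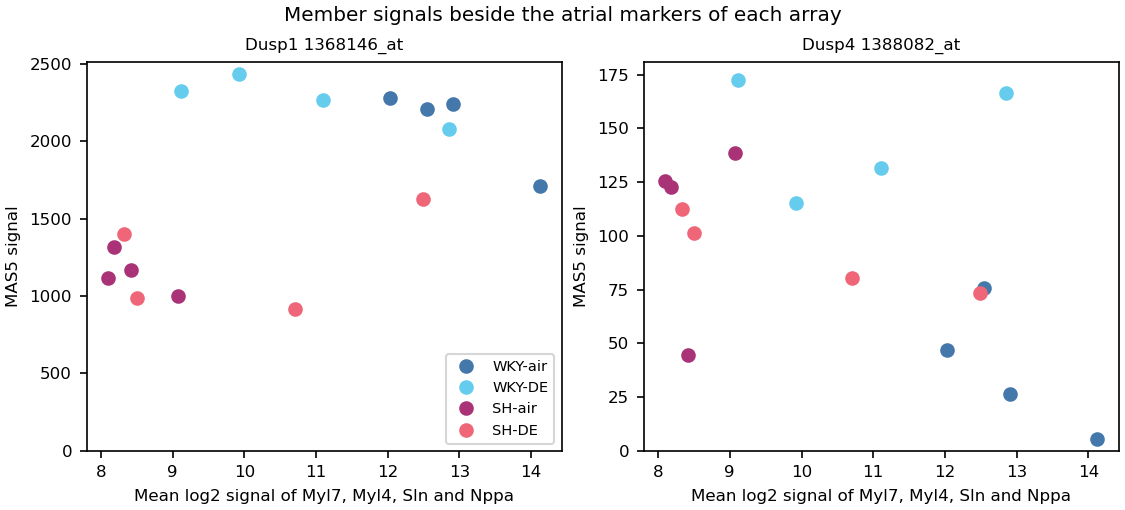
MAS5 signal of Dusp1 1368146_at and Dusp4 1388082_at (linear axes) against the mean log2 signal of the atrial markers Myl7, Myl4, Sln and Nppa on the same array, 1 point per rat, colored by group. The WKY-air arrays lie at the right, between 12.0 and 14.1, the SH-air arrays at the left, between 8.10 and 9.08, and the DE arrays of both strains spread between these ends.

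Dusp5 encodes a nuclear phosphatase that is selective for ERK and is induced by it, and lies at chr1:262543774-262557201. On probe set 1368124_at its signals were 286.1, 429.6, 245.3 and 222.1 in the WKY rats under air and 430.98, 446.6, 231.8 and 195.0 under DE. In SH rats they were 114.5, 320.5, 235.2 and 249.8 under air and 180.6, 122.3, 165.2 and 154.1 under DE. The WKY-air, WKY-DE and SH-air groups overlapped, and all 4 SH-DE arrays lay below all 8 WKY arrays.

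The strain difference of Dusp5 was −0.38 under air (95% interval −1.04 to 0.29, limma adjusted p = 0.572) and −0.92 under DE (SE 0.31, 95% interval −1.59 to −0.26, unadjusted p = 0.00989, limma adjusted p = 0.210). Neither passed the test over all probe sets. The DE difference was −0.45 in SH rats (95% interval −1.12 to 0.21) and 0.092 in WKY rats (95% interval −0.57 to 0.76), and the latter was −0.022 after quantile normalization, so that it has no settled direction. From low to high the group means were SH-DE, SH-air, WKY-air and WKY-DE. Each pair of neighbors in this order overlapped.

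The Dusp5 promoter is shown beside that of Dusp1 because, of the other member genes, Dusp5 had the highest positive correlation with Dusp1 1368146_at over the 16 arrays (r = 0.56, a description of arrays that share strain and scaling), while Dusp6 1382778_at ran the opposite way (r = −0.72). These are the 250 bases before the start at chr1:262543524-262543773 (RefSeq, GRCr8, + strand), 5′ to 3′, with the matches to the CArG box, the site bound by SRF, and to the CRE half-site in capitals.
Dusp5 promoter: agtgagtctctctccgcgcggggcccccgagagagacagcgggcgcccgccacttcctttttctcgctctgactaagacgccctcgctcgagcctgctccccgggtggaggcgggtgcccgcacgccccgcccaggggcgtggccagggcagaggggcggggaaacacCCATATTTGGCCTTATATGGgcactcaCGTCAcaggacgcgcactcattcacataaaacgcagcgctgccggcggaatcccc
It held 2 CArG boxes side by side, at −82 to −73 and −72 to −63, and 1 CRE half-site on the opposite strand (CGTCA) at −55 to −51. CArG boxes were found in 1.5% of the 33469 windows. The Dusp1 window held 0 CArG boxes and the Dusp5 window 0 full CREs, so the upstream 250 bases of these genes shared the CRE half-site alone among the motifs searched.

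Dusp6 encodes the cytoplasmic phosphatase of ERK, a feedback target of growth factor signals, and lies at chr7:35979502-35983834. Its 3 probe sets disagreed between the strains. On the brightest, 1387024_at, the signals were 657.0, 554.8, 627.6 and 692.0 in WKY rats under air and 607.2, 542.2, 523.7 and 604.5 under DE, and 471.0, 544.98, 519.8 and 547.1 in SH rats under air and 728.3, 595.97, 769.1 and 500.1 under DE. All SH-air arrays lay below all WKY-air arrays, while SH-DE overlapped every group. The strain difference under air was −0.27 (SE 0.14, 95% interval −0.56 to 0.017, limma adjusted p = 0.317), with an exact two-sided permutation p = 0.0286. Under DE it was 0.17 (95% interval −0.12 to 0.45).

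On the dimmer probe set 1382778_at of Dusp6 the signals were 97.1, 203.9, 188.7 and 181.9 in the WKY rats under air and 113.8, 169.4, 149.3 and 193.3 under DE. In SH rats they were 248.8, 365.9, 373.7 and 306.4 under air and 363.1, 246.3, 263.6 and 204.96 under DE. All 8 SH arrays lay above all 8 WKY arrays. The strain difference was 0.91 under air (SE 0.23, limma adjusted p = 0.0439), which was called, and 0.72 under DE (SE 0.23, 95% interval 0.23 to 1.21, limma adjusted p = 0.178), which was not. The call under air was lost in 10 of the 16 fits that leave out 1 array, namely without WKY-air replicate 1, 3 or 4, WKY-DE replicate 2 or 3, SH-air replicate 2, 3 or 4, or SH-DE replicate 2 or 3 (limma adjusted p 0.0522 to 0.117).

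The remaining Dusp6 probe set, 1377064_at, had signals of 137.3, 189.5, 141.0 and 207.5 in WKY-air and 75.0, 133.4, 133.1 and 146.9 in SH-air, and under DE 135.8, 110.4, 173.8 and 103.1 in the WKY rats and 147.5, 90.7, 197.7 and 83.7 in the SH rats. Its groups overlapped, and its strain difference under air was −0.44 (95% interval −0.98 to 0.11, limma adjusted p = 0.403). Over the 16 arrays 1387024_at correlated with r = 0.56 with 1377064_at and with r = −0.085 with 1382778_at. The called probe set therefore did not follow the other probe sets of the gene, and no direction is given here for Dusp6 as a gene. DE differences of the 3 probe sets were −0.34 to −0.069 in WKY rats and −0.26 to 0.29 in SH rats, and 0 were called. The brightest one had the lowest p in SH rats (0.29, unadjusted p = 0.0486, limma adjusted p = 0.802).

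Ptprr encodes a tyrosine phosphatase that holds ERK and p38 in an inactive state, and it lies at chr7:53548611-53815632, on the same chromosome as Dusp6. On probe set 1368358_a_at its signals were 588.7, 1026.98, 1330.8 and 893.2 in the WKY rats under air and 1513.5, 1258.3, 1789.8 and 1601.96 under DE. In SH rats they were 2166.1, 1794.6, 1070.2 and 1546.8 under air and 1601.3, 1832.4, 1297.6 and 1878 under DE. WKY-air had the lowest mean, and the ranges of the other 3 groups lay over each other.

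The difference of Ptprr from WKY-air was 0.72 in WKY-DE (SE 0.24, unadjusted p = 0.00997, limma adjusted p = 0.121), 0.78 in SH-air (SE 0.24, limma adjusted p = 0.103) and 0.82 in SH-DE (SE 0.24, limma adjusted p = 0.103). None passed the test, and all 3 rest on the same WKY-air arrays. WKY-DE and WKY-air overlapped by 1 pair of arrays, 1258.3 against 1330.8. SH-DE differed from SH-air by 0.037 (95% interval −0.48 to 0.56) and from WKY-DE by 0.096 (95% interval −0.42 to 0.62). In SH-air against WKY-air, Ptprr was called without SH-air replicate 3 (0.97, limma adjusted p = 0.0467), with an intensity trend (limma adjusted p = 0.0360) and without the dimmest 40% of probe sets (limma adjusted p = 0.0474).

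**Figure D3:**
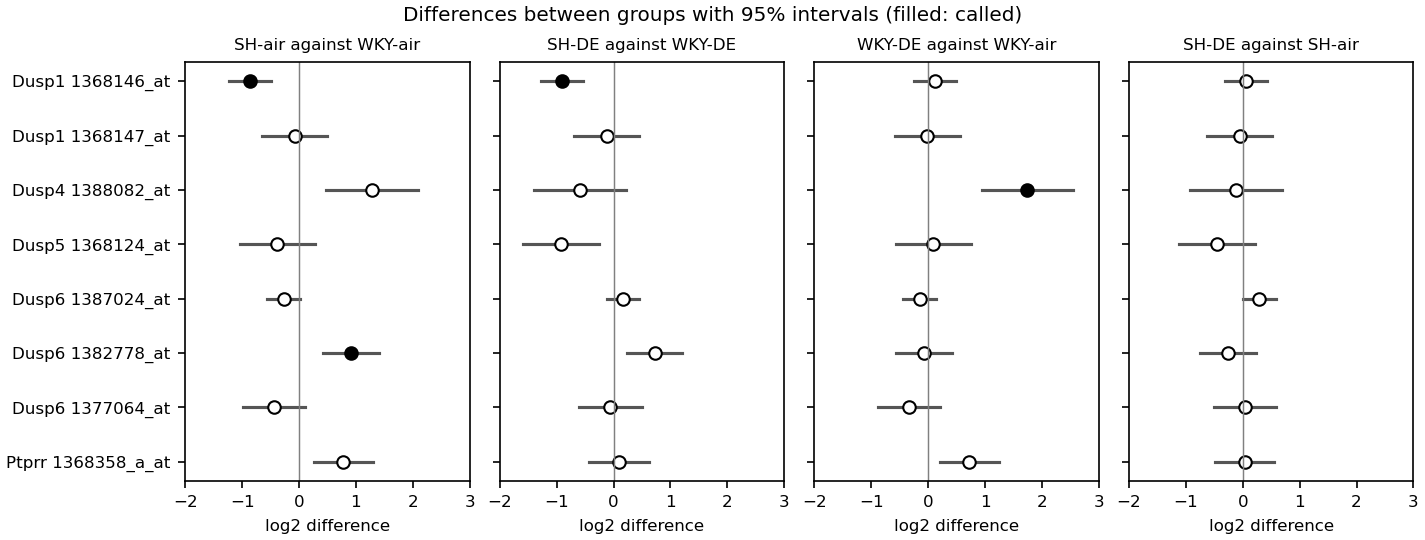
Log2 difference of each of the 8 probe sets in 4 comparisons, with 95% intervals from limma, where filled points were called. In SH-DE against SH-air 0 points are filled, and in SH-air against WKY-air the called probe sets Dusp1 1368146_at and Dusp6 1382778_at lie on opposite sides of 0.

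Of the 8 probe sets, 2 were called in SH-air against WKY-air, where 3.14% of the 12783 probe sets with 1 named gene were called, and 3 did not overlap between the groups, against 11.7% of all. In SH-DE against WKY-DE 1 was called (0.704% of all), and 4 did not overlap (8.81% of all). In WKY-DE against WKY-air 1 was called (1.87% of all) and 1 did not overlap (12.7% of all). In SH-DE against SH-air 0 were called by limma (0% of all) and 0 did not overlap (4.17% of all), with 1 at an unadjusted p under 0.05, and 0 of the 8 were called in any other setting tried. In SH-DE against WKY-air 1 was called, Dusp1 1368146_at (−0.80, limma adjusted p = 0.0298, 1.91% of all), and 3 did not overlap (10.7% of all). That call was lost without WKY-air replicate 2, 3 or 4 or SH-DE replicate 1 or 2 (limma adjusted p 0.0652 to 0.0947). The interaction called 0 of 8 (0.00782% of all), with Dusp4 and Dusp6 1387024_at at an unadjusted p under 0.05. Probe sets of 1 gene share a target and are not independent, and 8 are too few for these shares to be compared closely with the background.

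The other genes of the pathway were taken from 8 lists. Of 25 further dual-specificity and MAP kinase phosphatases, 12 had a probe set with 1 named gene. Of these, 0 of 12 were called by limma in any of the 6 comparisons, where 0% to 3.14% of all were called, with 0 to 3 in each at an unadjusted p under 0.05. Dusp3, which acts on ERK and JNK, had a mean of 2951 in WKY-air and 2546 in SH-air, and Dusp12 had 106 in WKY-air and 202 in WKY-DE, neither of which passed the test. The median log2 difference of the list was −0.012 in SH-air against WKY-air, where the median of all probe sets with 1 gene was 0.023, and −0.091 in WKY-DE against WKY-air, where it was 0.085. No other phosphatase of the list passed the test beside Dusp1, Dusp4 and Dusp6.

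The kinases showed 0 limma calls, in comparisons where 0% to 3.14% of all probe sets with 1 named gene were called. At such shares, 0 calls in lists this short do not set the kinases apart from other genes. Of 14 MAP kinases 11 were measured, of 7 MAP kinase kinases 5, of 18 MAP3 kinases including the Raf kinases 9, and of 13 Ras proteins and adaptors 10, the last by their brightest probe sets. The counts at an unadjusted p under 0.05 in WKY-DE against WKY-air were 2, 1, 1 and 1. Mapk4, an atypical MAP kinase, had a mean of 18.0 in WKY-air, close to the offset of 16.1, and 86.4 in WKY-DE. Mapk13, a p38 kinase, had 69.9 and 157. Neither passed the test. In SH-DE against WKY-air a dimmer probe set of Rap1a, a small GTPase, was called (0.74, limma adjusted p = 0.0495), in 3 of 16 fits that leave out 1 array.

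**Figure D4:**
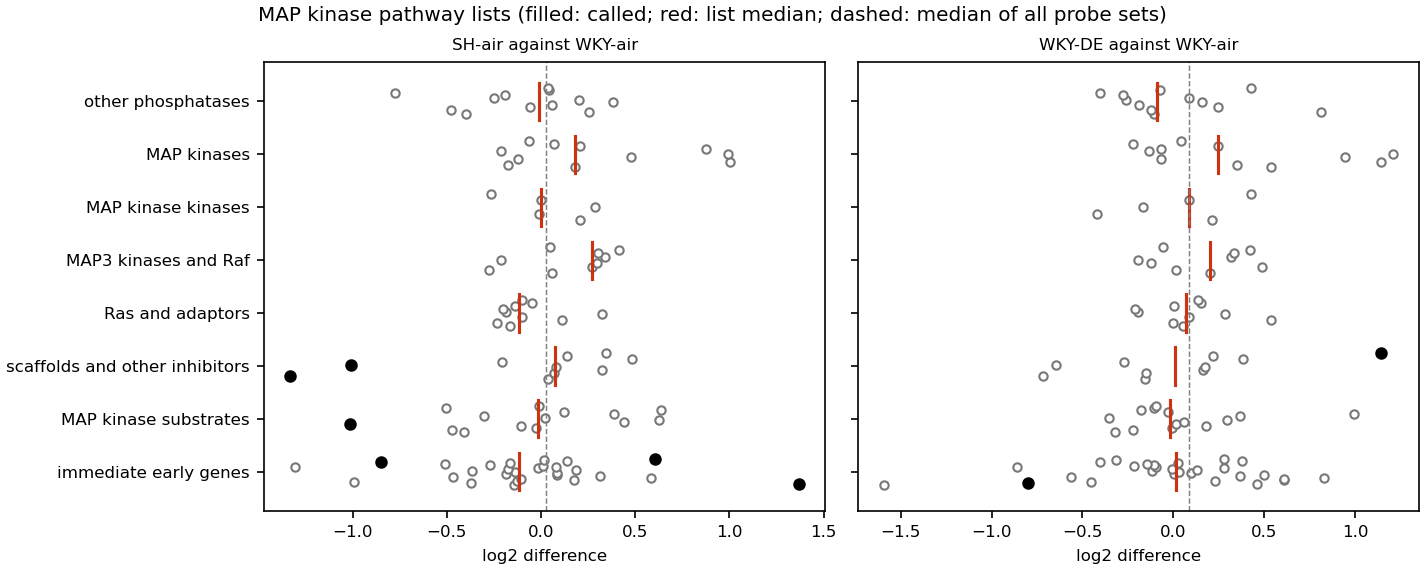
Log2 difference of each gene of 8 MAP kinase pathway lists in SH-air and in WKY-DE, each against WKY-air, by the probe set with the highest mean, where filled points were called, red bars are list medians and the dashed line is the median of all probe sets. Calls lie in the lists of scaffolds and inhibitors, substrates and immediate early genes, and 0 lie among the phosphatases and kinases.

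Calls were found among the other inhibitors, with 10 of 15 measured. Spry2, Sprouty 2, is an inhibitor of receptor tyrosine kinase signals to ERK that is also induced by them. Its signals were 107.96, 118.2, 131.7 and 111.2 in the WKY rats under air and 281.2, 261.6, 328.2 and 245.3 under DE, and 150.4, 169.4, 152.9 and 139.2 in the SH rats under air and 78.3, 188.8, 111.6 and 182.3 under DE. It was higher in WKY-DE than in all 3 other groups without overlap. Of all probe sets with 1 named gene, 12.7% did not overlap between WKY-DE and WKY-air and 8.81% between SH-DE and WKY-DE. Spry2 was named because it was called. The difference was 1.14 from WKY-air (SE 0.20, limma adjusted p = 0.0215) and that of SH-DE from WKY-DE was −0.98 (SE 0.20, limma adjusted p = 0.0375). The interaction was −1.32 (SE 0.29, limma adjusted p = 0.143) and was not called. The first call was lost without WKY-air replicate 1 (1.11, limma adjusted p = 0.0509) or WKY-DE replicate 2 (1.17, limma adjusted p = 0.0526) and after quantile normalization (0.97, limma adjusted p = 0.0505), and the second was called in 4 of 16 fits that leave out 1 array (−1.13 to −0.76). Like Dusp4, Spry2 had its highest mean in WKY-DE and its lowest in WKY-air.

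Pea15, a small protein that keeps ERK in the cytoplasm, had its highest mean in WKY-air. On probe set 1388339_at its signals were 718.5, 656.7, 709.4 and 625.7 in the WKY rats under air and 428.0, 507.5, 416.9 and 271.8 under DE, and 315.9, 305.7, 424.2 and 408.97 in the SH rats under air and 413.9, 286.8, 374.6 and 396.96 under DE. All arrays of the other 3 groups lay below all WKY-air arrays. Of all probe sets with 1 named gene, 11.7% did not overlap with WKY-air in SH-air, 12.7% in WKY-DE and 10.7% in SH-DE. Pea15 too was named because it was called. The difference was −0.88 in SH-air (SE 0.18, limma adjusted p = 0.0168), −0.75 in WKY-DE (SE 0.18, limma adjusted p = 0.0481), and −0.86 in SH-DE (limma adjusted p = 0.0254), all against the same WKY-air arrays. On the other probe set, 1371441_at, it was −1.01 in SH-air (limma adjusted p = 0.0174), −0.89 in SH-DE (limma adjusted p = 0.0458) and −0.65 in WKY-DE, the last not called (limma adjusted p = 0.108). The SH-air call on 1388339_at was lost without SH-air replicate 1 or 2 (limma adjusted p 0.0504 and 0.0527) and that on 1371441_at without SH-air replicate 1 (limma adjusted p = 0.0520), and the WKY-DE call remained in 2 of 16 such fits. The SH-DE calls remained in 11 of 16 such fits on 1388339_at and in 2 of 16 on 1371441_at. Arrb2, β-arrestin 2, a scaffold of receptor and MAP kinase complexes, had a mean of 106 in WKY-air and 31.6 in SH-air (−1.33, limma adjusted p = 0.0436, called in 6 of 16 such fits).

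Among 14 of 18 substrates, Elk4, a partner of SRF that ERK phosphorylates, was lower in SH-air, with signals of 83.3, 123.6, 122.4 and 118.7 in WKY-air and 69.1, 29.96, 33.0 and 64.4 in SH-air (−1.02, SE 0.20, limma adjusted p = 0.0139). These groups did not overlap (11.7% of all), and the call held with each array left out. Mef2d, a transcription factor of muscle, was lower in SH-DE than in WKY-DE on probe set 1369851_at (−1.41, SE 0.30, limma adjusted p = 0.0458, called in 5 of 16 such fits), and not on 1398427_at (−0.096, limma adjusted p = 0.779).

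Immediate early genes, which MAP kinases induce together with Dusp1, moved in both directions, with 28 of 31 measured. In SH-air against WKY-air 2 were called higher and 1 lower, where 3.14% of all probe sets with 1 named gene were called. The list's median was −0.12 beside 0.023 for all probe sets. Nr4a1, an orphan nuclear receptor, was lower, with 534.0, 803.6, 500.6 and 579.2 in WKY-air and 328.4, 329.1, 313.6 and 319.6 in SH-air (−0.85, SE 0.20, limma adjusted p = 0.0310). Ccn1, a matricellular protein, was higher, with 62.5, 25.1, 53.5 and 64.2 in WKY-air and 197.99, 149.4, 124.9 and 146.1 in SH-air (1.37, SE 0.27, limma adjusted p = 0.0144). Zfp36, which destabilizes cytokine mRNA, was higher with a mean of 651 against 428 (0.60, SE 0.14, limma adjusted p = 0.0353). The groups of Nr4a1, Ccn1 and Zfp36, named because they were called, did not overlap, which held for 11.7% of all probe sets with 1 named gene. Ccn1 remained called with each array left out, and Nr4a1 and Zfp36 in 9 of 16 such fits. In SH-DE against WKY-air, Ccn1 (1.55, limma adjusted p = 0.00916) and Zfp36 (0.64, limma adjusted p = 0.0367) were also called, the former with each array left out and the latter in 9 of 16 such fits.

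In WKY-DE against WKY-air 1 of the 28 was called (1.87% of all), Ccn2, a matricellular protein of the same family as Ccn1. Its signals were 3491.6, 2387.8, 3181.3 and 2886.4 in WKY-air and 1754.1, 2081.5, 1601.5 and 1393.9 in WKY-DE (−0.80, SE 0.19, limma adjusted p = 0.0462). The groups did not overlap (12.7% of all), and the call remained in 4 of 16 fits that leave out 1 array. The list's median there was 0.017 beside 0.085 for all probe sets. With the atrial covariate none of the calls named for these pathway genes against WKY-air was made, and each of these differences kept its direction. The covariate removed most calls of the whole series as well. Over all probe sets with 1 gene they went from 401 to 8 in SH-air, from 239 to 1 in WKY-DE and from 244 to 10 in SH-DE, each against WKY-air. The loss of the calls is therefore not particular to these genes.

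**Figure D5:**
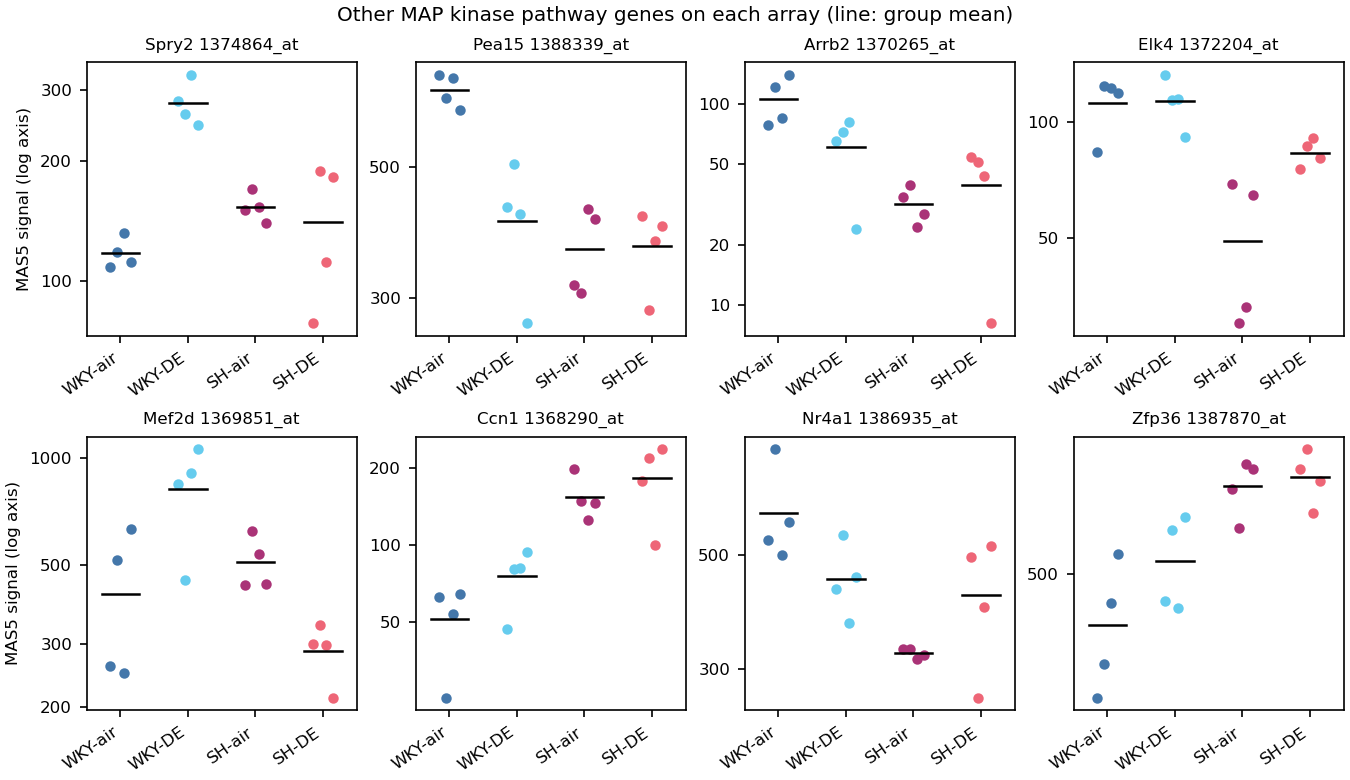
MAS5 signal (log axis) of Spry2, Pea15, Arrb2, Elk4, Mef2d, Ccn1, Nr4a1 and Zfp36 on each array of the 4 groups, where points are rats and lines the group means. Spry2 is highest in WKY-DE, with a mean of 279 against 117 in WKY-air, and Pea15 is highest in WKY-air, with 678 against 406 in WKY-DE.

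The genes whose signals followed each member most closely over the 16 arrays are named as a description, since the arrays share strain, exposure and scaling. For Dusp1 1368146_at they were Bzw2 (r = 0.944), Retsat, a retinol saturase (r = 0.923), and Homer2, a scaffold protein (r = 0.923). Within the groups, that is for deviations from group means, these r were 0.717, 0.563 and 0.573. Retsat had means of 4239 in WKY-air and 3839 in WKY-DE against 1171 in SH-air and 1530.3 in SH-DE, so that it separated the strains as Dusp1 did.

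For Dusp4 the closest were Mtor, the kinase of growth control (r = 0.891), Tafazzin, which remodels cardiolipin (r = 0.890), and Slc22a8, an organic anion transporter (r = 0.881). Mtor had a mean of 673 in WKY-air and 895 in WKY-DE. For Ptprr they were Rab35 (r = 0.927), Asah2, a neutral ceramidase (r = 0.898), and Lyplal1 (r = 0.884). The r of Rab35 within groups was 0.893, the highest within-group value of the 15 genes.

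For Dusp5 the closest were Lgals3bp (r = 0.813), Bace1, a protease (r = 0.803), and Gabrb2 (r = 0.782). For the brightest Dusp6 probe set they were C1qa, a chain of complement C1q made by macrophages (r = 0.826), Fcna (r = 0.786) and Acvrl1, an endothelial receptor (r = 0.781). C1qa had means of 386 in SH-air, 442 in WKY-DE, 511 in WKY-air and 535 in SH-DE, the same order of groups as this Dusp6 probe set. C1qa was named for its correlation with this probe set, so the shared order is not a separate result. It is also 1 of the 5 macrophage markers measured. Their sum, C1qa included, was 1352 to 1547 in SH-air, 1336 to 1753 in WKY-DE, 1643 to 1912 in WKY-air and 1551 to 2158 in SH-DE. Limma called 0 of 5 in each comparison, with 0 to 3 at an unadjusted p under 0.05. The part of macrophages in the Dusp6 signal was not tested.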

How the data were processed

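Affymetrix Rat 230A arrays were hybridized with left ventricular RNA, 1 array for each of 16 rats. The deposited table holds 1 intensity per probe set and array, which the authors computed with MAS5 (version not given in the sources used here) and scaled to a trimmed mean of 500. Present and absent calls were not used here. The RMA values that the paper's methods describe were not analysed here.

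From the intensities, 57 controls of 15923 probe sets were left out, 16.1 was added and log2 taken. Group means were compared in 1 model of all 16 arrays (limma 3.58.1, R 4.3.3) with Benjamini-Hochberg adjustment over 15866 probe sets. The number of arrays limits the precision. Of these probe sets 12783 carried 1 gene in the platform annotation, 312 several and 2771 none. A gene in a list stands by its brightest probe set. Named were all probe sets of the members, pathway genes called in any comparison (up to 4 per list and comparison), and the 3 genes most like each member. Dusp3, Dusp12, Mapk4 and Mapk13 were not called and were named outside this rule, as examples picked from their lists. The members and lists were chosen with earlier results of these data known. Promoters came from RefSeq (GRCr8). The calculations were tested on simulated data. Alternatives were other offsets, normalization, filters, moderation, a replicate block, array weights, a fit of only the groups compared, a stricter threshold, an atrial marker covariate and arrays left out.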

Additional observations from a re-analysis of the deposited data

Results flagged for a closer look

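In 4 of 32 groups of 4 arrays, 1 array stood apart from the other 3, where chance alone gives about 1 in 20 groups. Dusp1 1368146_at had a signal of 1713.9 in WKY-air replicate 1, with a gap to the nearest array of 0.895 of the group's range. Dusp4 had 44.4 in SH-air replicate 1 (0.884 of the range). Dusp6 1382778_at had 97.1 in WKY-air replicate 1 (0.841 of the range) and Dusp6 1377064_at had 75.0 in SH-air replicate 1 (0.848 of the range). Each of the 4 was the lowest array of its group. WKY-air replicate 1 also had the highest mean of the atrial markers, 14.1 on the log2 scale, and the part of these cells in its Dusp signals was not tested.

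The strain difference of Dusp4 had opposite signs under air, where SH-air lay above WKY-air by 1.28, and under DE, where SH-DE lay below WKY-DE by 0.59. All 4 SH-air arrays were above the mean of WKY-air and all 4 SH-DE arrays below the mean of WKY-DE. The test of that difference, the interaction, was −1.87 (SE 0.53, limma adjusted p = 0.225) and did not pass. Between WKY-DE and WKY-air, limma called 0 of 5 atrial markers (4 at an unadjusted p under 0.05) and 1 of 8 fibroblast markers (6 at an unadjusted p under 0.05). The called marker was lower in WKY-DE, and 1.87% of all were called there. The part of these cells in this pattern was not tested.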

How the results depend on the processing

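Of the values tried under other settings for the called differences and for the counts of calls, 200 were kept, 96 were weaker and 2 stronger. A called difference was kept if direction and call stayed, and weaker if the call was lost. A count was kept if it stayed the same or nearly so, 3 calls in place of 2 included, and was otherwise weaker or stronger. Counts of 0 that stayed at 0 are among the 200, so these are not all calls that held. Among the other values 802 kept direction and call, 7 gained a call and 32 changed sign. With 4 arrays per group, and a dim Dusp4, signal over background and the number of arrays limit what can be called.

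In SH-air against WKY-air the 2 called probe sets became 1 with an offset of 1, with array weights, in a model of the compared groups alone, with a replicate block and without both DE arrays numbered 3, 0 at an adjusted p under 0.01 and with the atrial covariate, 3 without the dimmest 40% and with an intensity trend, where Ptprr was added, and 1 to 3 with 1 array left out. In SH-DE against WKY-DE the 1 became 0 in a model of the compared groups alone and at an adjusted p under 0.01, and 0 to 1 with 1 array left out. In WKY-DE against WKY-air the 1 became 0 with an offset of 1, after quantile normalization, without the dimmest 40% of probe sets (which leaves Dusp4 out), in a model of the compared groups alone, at an adjusted p under 0.01, with the atrial covariate and without both arrays numbered 3, and 0 to 1 with 1 array left out. In SH-DE against WKY-air the 1 became 2 without the dimmest 40% and with an intensity trend, where Ptprr was added, 0 in a model of the compared groups alone, with a replicate block, at an adjusted p under 0.01 and with the atrial covariate, and 0 to 1 with 1 array left out.

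Dusp1 in SH-air against WKY-air was not called at an adjusted p under 0.01 (−0.86), with the atrial covariate (−0.90) or on its other probe set (−0.078), and was −0.96 to −0.80 with 1 array left out. In SH-DE against WKY-DE it was not called with the compared groups alone or at an adjusted p under 0.01 (−0.91 each) or on the other probe set (−0.12), and was −1.06 to −0.79 with 1 array left out. In SH-DE against WKY-air it was not called with the compared groups alone, a replicate block or an adjusted p under 0.01 (−0.80 each), with the atrial covariate (−0.82) or on the other probe set (−0.13), and was −0.94 to −0.67 with 1 array left out. Dusp4 in WKY-DE was not called with an offset of 1 (2.36), after quantile normalization (1.55), with the compared groups alone or at an adjusted p under 0.01 (1.75 each), with the atrial covariate (1.44) or without both arrays numbered 3 (1.68), and was 1.36 to 2.06 with 1 array left out. Dusp6 1382778_at in SH-air was not called with an offset of 1 (0.98), array weights (0.85), the compared groups alone, a replicate block, an adjusted p under 0.01 or both arrays numbered 3 left out (0.91 each), or the atrial covariate (0.71), and was 0.70 to 1.03 with 1 array left out.

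No called difference changed sign on its own probe set. Against differences that were not called, other probe sets of the gene had the opposite sign, at 0.91 for Dusp6 in SH-air against WKY-air (the called 1382778_at), −0.055 for Dusp6 in SH-DE against WKY-DE, −0.013 for Dusp1 in WKY-DE, −0.057 for Dusp1 and −0.26 for Dusp6 in SH-DE against SH-air, −0.39 for Dusp6 in SH-DE against WKY-air and −0.19 for the Dusp6 interaction. Dusp5 in WKY-DE was −0.022 after quantile normalization and −0.16 with the atrial covariate, which also gave 0.095 for Dusp4 in SH-DE against SH-air. Without both arrays numbered 3, Dusp1 in SH-DE against SH-air was −0.081 and Dusp6 in SH-DE against WKY-air −0.068. With 1 array left out, ranges that included both signs were −0.081 to 0.19 for Dusp1, −0.44 to 0.013 for Dusp4 and −0.15 to 0.18 for Ptprr in SH-DE against SH-air, −0.081 to 0.30 for Dusp5 and −0.29 to 0.061 for Dusp6 1382778_at in WKY-DE, −0.068 to 0.13 for Dusp6 in SH-DE against WKY-air, and −0.20 to 0.075 for Dusp1 and −0.34 to 0.025 for Dusp6 1382778_at in the interaction. The cause of these changes was not tested.

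Arrays with the same replicate number did not deviate together (r −0.096 to 0.053), and 2 of 16 arrays correlated best with their own number, so that the numbers were not taken as pairs. With that replicate block the calls over all probe sets with 1 gene went from 401 to 242 in SH-air, from 239 to 88 in WKY-DE and from 90 to 46 in SH-DE against WKY-DE. After quantile normalization those of WKY-DE went from 167 higher and 72 lower to 36 higher and 43 lower. Over the settings without an array left out, the counts of all called probe sets were 8 to 630 in SH-air, 1 to 542 in WKY-DE, 0 to 2 in SH-DE against SH-air, 19 to 224 in SH-DE against WKY-DE and 10 to 508 in SH-DE against WKY-air.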
